A study of Homo sapiens with 16 samples.

Results

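The nascent RNA of HAP1 cells given ML-60218 for 5 h was compared with that of cells given it for 1 h, in 2 libraries at each time, 4 of the 16 libraries of the series. All 4 libraries with this agent at these times were taken, as their labels name them. HAP1 is a near-haploid derivative of the human leukaemia line KBM-7, and the cells were wild type. The groups used were cells given 20 µM ML-60218, called a Pol III inhibitor in the labels, for 5 h or 1 h; cells given 1 µM BMH-21, called a Pol I inhibitor, for 5 h or 1 h; and untreated cells. All of these cells were labelled with 1 mM 4-thiouridine (4-SU), a uridine analogue, in the last 30 min. Cells given 100 µM DRB, an inhibitor of Pol II elongation, for 5 h or 1 h were labelled in the same way and enter only 1 alternative fit. One further group received no 4-SU. Untreated cells were sampled as a single group with no time label, so time under ML-60218 and time in the experiment cannot be told apart. Libraries of one group are labelled as biological replicates, with no word on separate cultures, and every p-value below rests on the spread between them, which may be technical.

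RNA polymerase III makes tRNAs, 5S rRNA and other short noncoding RNAs from genes whose control elements lie largely inside the transcribed region. TT-chem-seq pulls down RNA that took up 4-SU, so it reads RNA made during the labelling pulse and not the standing pool. The integrated stress response couples kinases that sense uncharged tRNA and other stresses to the transcription factor ATF4, whose targets make amino acids, charge tRNA and feed back on the response. The p53 pathway is a separate programme, set off by DNA damage and by nucleolar stress.

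The 4 libraries held 42864576.5 and 37112810 tags at 5 h, against 23734129.5 and 26190271 at 1 h. A tag is a sequenced fragment, with 0.5 for each mate. Gene bodies of the table of 9944 mRNA and noncoding genes held 947548.5 and 751229.5 tags at 5 h and 520536.5 and 531834.5 at 1 h, so the 5 h values have the smaller counting error. Levels are given in CPM, tags per 1000000 mRNA tags after TMM scaling, so every value is relative to typical mRNA, and they are compared between libraries and not between genes. Over genes, the correlation of log2 levels between the 2 libraries of a group was 0.975 at 5 h and 0.955 at 1 h. The level in cells without 4-SU, set by the yeast spike-in, ran from 0.104% to 8.51% of the untreated level over the 84 genes of the mRNA table taken by the naming rule. Of 20 blood lineage markers, 7 were in the table, and CD33 had 0 and 0 tags at 5 h and 0 and 1 at 1 h. The 7 markers had a summed level of 661 to 725 at 5 h against 595 to 646 at 1 h, most of it from RUNX1, and none of the 3 tested passed.

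Between 1 h and 5 h of ML-60218, 1106 of 4876 mRNA genes tested changed at an adjusted p under 0.05 (limma), which is 22.7% of them. Of these, 694 (14.2%) were higher at 5 h and 412 (8.45%) were lower. The median gene moved by 0.03 on the log2 scale. The calls that were higher had a median change of 0.81 and those that were lower a median of -0.68. The libraries of the 2 times did not overlap for 2899 genes (59.5%). On recovered tags, edgeR called 783 of the 1106 and no other gene (524 higher, 259 lower). Scaled to the yeast spike-in, the median gene was at -0.13 and the calls became 149 higher and 305 lower, so directions below are relative to typical mRNA. Each spike-in factor was set against the untreated library of the same number, but the fit on that scale did not pair libraries by number. Its SEs were wider for genes such as TXNIP (0.253, against 0.166 on the mRNA scale). How far this accounts for calls lost on the spike-in scale, here and in the lists below, was not tested. When the 4 libraries of cells given DRB joined the fit, no gene passed in limma (smallest adjusted p = 0.0507, with 754 genes at an unadjusted p under 0.05). The median residual SD was 0.43 in that fit and 0.185 without the DRB libraries.

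Most of the genes called had an untreated level nearer to that of 1 h. Of the 694 that were higher at 5 h, 465 had an untreated mean nearer to the 1 h mean and 229 nearer to the 5 h mean. Of the 412 that were lower, 330 were nearer to the 1 h mean and 82 nearer to the 5 h mean. These counts describe group means and were not tested.

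Neither summed product of Pol III, 5S rRNA or tRNA, passed the test over time. Tags of the 5S rRNA genes stood at 373 and 868 CPM at 5 h, against 989 and 908 at 1 h, and at 347 and 565 in untreated cells. Both 5 h libraries lay below both 1 h libraries, but they were far apart from each other. The change was -0.73 on the log2 scale (SE 0.34, 95% interval -1.46 to -0.01, limma adjusted p = 0.133). Without 5 h library 1 it was -0.13 (limma adjusted p = 0.827) and without 5 h library 2 it was -1.34 (0.0283), the lone 5 h library being assumed to vary like the other groups. The 5S copies are near-identical and were deposited as 1 sum. The tRNA genes summed to 13600 and 11230 at 5 h, against 11410 and 11990 at 1 h and 7821 and 9644 in untreated cells, with overlap between the 2 times (0.08, SE 0.22, 95% interval -0.39 to 0.55, limma adjusted p = 0.826). Their sum had the opposite sign on the spike-in scale (-0.08, SE 0.23, adjusted p = 0.834). BCYRN1, the gene of the BC200 RNA that Pol III makes, was counted over an annotated body far longer than that RNA (chromosome 2, 47331059 to 47344517). It had 5179 and 5036 at 5 h and 3530 and 6565 at 1 h, with untreated libraries at 3636 and 7850, and did not pass (0.09, SE 0.41, limma adjusted p = 0.906; -0.08 on the spike-in scale).

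Among single tRNA genes, 65 of 631 had enough tags to be tested and 3 passed in limma (4.62%), with 34 higher and 31 lower in all and a median of 0.08. All 3 averaged under 50 tags over the 4 libraries, are outside the naming rule and were chosen after their values were seen. tRNA-Asp-GTC-1-1 (chromosome 12, 98503502 to 98503574) had 14.5 and 16 tags at 5 h against 2 and 2 at 1 h (2.13, SE 0.46, limma adjusted p = 0.00684). At 2 tags a library, its fitted change depends on the pseudocount. tRNA-Tyr-GTA-8-1 (chromosome 6, 26575569 to 26575659) had 21.5 and 9 tags at 5 h and 25 and 31 at 1 h, which is 22.7 and 11.7 CPM against 45.7 and 57.6 CPM (-1.62, SE 0.36, limma adjusted p = 0.00762). tRNA-Tyr-GTA-4-1 (chromosome 14, 20657463 to 20657557) had 9 and 8 tags at 5 h and 20 and 8 at 1 h (-1.19, SE 0.40, limma adjusted p = 0.0495; edgeR adjusted p = 0.0736). In CPM, both genes for tyrosine tRNA were lower in each 5 h library than in each 1 h library. Such separation is common here, as only 32 of the 65 tRNA genes tested overlapped between the 2 times. Tyrosine and leucine tRNA genes were the most numerous tested, with 14 each. Of the 14 tyrosine entries, 11 had a negative change and the median was -0.42. Their summed level did not fall in both libraries, at 6183 and 4953 CPM at 5 h against 5367 and 5734 CPM at 1 h. The copy with the most tags, tRNA-Tyr-GTA-2-1, changed by -0.035 (limma adjusted p = 0.925). Of these 14, 2 carry the prefix nm in the files, are shorter and had positive changes, while the other 12 held the 11 negative changes, with a median of -0.54. Of the leucine genes 9 were positive, with a median of 0.21. Copies of a tRNA share sequence, which leaves their tags hard to assign to one copy. Without 5 h library 2 no tRNA gene passed.

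**Figure D1:**
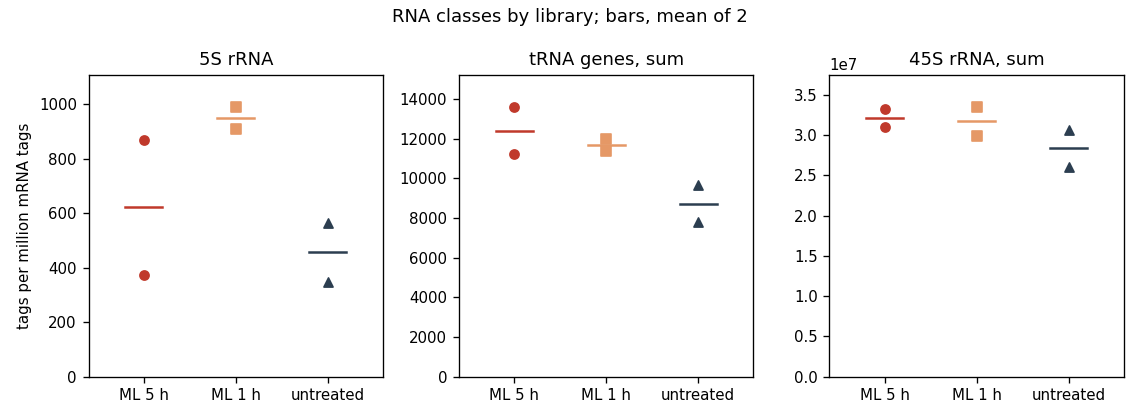
RNA classes by library in tags per 1000000 mRNA tags (linear axis from 0), with ML-60218 5 h, ML-60218 1 h and untreated cells from left to right, a point per library and a bar at the mean of 2. The 5S value of 5 h library 1 (373) lies apart from that of library 2 (868), and the tRNA and 45S sums overlap between 5 h and 1 h.

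The 45S ribosomal precursor, which Pol I makes, summed to 30970000 and 33220000 CPM at 5 h and 29940000 and 33470000 CPM at 1 h, and did not pass (0.02, SE 0.19, limma adjusted p = 0.958; -0.14 on the spike-in scale and -0.01 on the scale of library totals). None of the 5 annotated 45S units, near-identical copies whose tags are hard to assign, passed. Under BMH-21 all 5 units rose between 1 h and 5 h (limma). RNA45SN3 (chromosome 21) changed by 0.21 under ML-60218 (SE 0.11, limma adjusted p = 0.195) and by 1.17 under BMH-21 (SE 0.11, limma adjusted p = 0.000158). The difference of ML-60218 minus BMH-21, -0.96 (SE 0.16), did not pass in limma (adjusted p = 0.0816). In DESeq2 it passed (-0.99, adjusted p = 7.11e-06), as did that of RNA45SN5 (-0.94, adjusted p = 0.00198).

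Of 6 genes of the Pol III machinery, 2 fell at 5 h in limma, with a list median of -0.35, while none passed in edgeR. Among all mRNA genes 8.45% fell in limma. BDP1, a subunit of the initiation factor TFIIIB, had 387 and 399.6 CPM at 5 h, against 483 and 515 CPM at 1 h and 515 and 516 CPM in untreated cells (-0.34, SE 0.10, limma adjusted p = 0.0281; edgeR adjusted p = 0.0531). SSB, which encodes the La protein that binds the 3′ ends of Pol III transcripts, had 115 and 81.4 at 5 h against 163 and 136 at 1 h (-0.62, SE 0.19, limma adjusted p = 0.0318; edgeR adjusted p = 0.0606). BDP1 missed the threshold without 1 h library 2, 5 h library 1 or 5 h library 2 (limma adjusted p = 0.0821, 0.126 and 0.0993), and SSB without 1 h library 1 or 5 h library 2 (0.149 and 0.262, the change being -0.38 without 5 h library 2). The catalytic subunit gene POLR3A did not pass (-0.21, SE 0.12, limma adjusted p = 0.218), nor did POLR3E (0.03, SE 0.10, limma adjusted p = 0.854). Of 9 tRNA processing genes, 1 rose and 1 fell in limma, where 14.2% and 8.45% of all mRNA genes did. PUS7, a pseudouridine synthase gene (chromosome 7, 105456510 to 105522258), fell to 499.5 and 503 at 5 h, against 783 and 771 at 1 h (-0.63, SE 0.10, limma adjusted p = 0.00165). RPP25, which encodes a subunit of RNase P (chromosome 15, 74954415 to 74957464), had 1035 and 912 at 5 h against 627 and 729 at 1 h (0.52, SE 0.14, limma adjusted p = 0.0192), and missed the threshold without 1 h library 1 or either 5 h library (0.104, 0.136 and 0.0555). None of the 6 aminoacyl-tRNA synthetase genes passed in limma or edgeR. The aspartyl enzyme's gene DARS was the nearest (-0.46, SE 0.17, limma adjusted p = 0.0665), and it passed without 1 h library 2 or 5 h library 1 (0.0121 and 0.0426). POLR3A, POLR3E and DARS are outside the naming rule and were chosen after their values were seen.

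Of 13 genes of the integrated stress response, 7 rose and 2 fell at 5 h in limma, the same counts as in edgeR, where 14.2% of all mRNA genes rose and 8.45% fell in limma. The list median was 0.51 against 0.03 over all genes, with 10 members higher and 3 lower. Over all mRNA genes 2568 were higher and 2298 lower. On the spike-in scale 1 of the 13 rose and 2 fell. CHAC1, which encodes a glutathione-degrading enzyme and is an ATF4 target (chromosome 15, 40953148 to 40956519), had 746 and 513 CPM at 5 h, against 111 and 211 CPM at 1 h and 144 and 214 CPM in untreated cells. The lowest 5 h library was over both 1 h libraries and both untreated ones. The change was 2.02 (SE 0.30, limma adjusted p = 0.00114), a 4.04-fold rise, and it passed without any one of the 4 libraries. ASNS, the asparagine synthetase gene (chromosome 7, 97852117 to 97872542), had 277 and 222 at 5 h, against 142 and 138 at 1 h and 171 and 139.6 in untreated cells (0.83, SE 0.17, limma adjusted p = 0.00502). PHGDH, the first enzyme of serine synthesis (chromosome 1, 119711886 to 119744215), had 1272 and 1051 at 5 h, against 604 and 788 at 1 h and 741 and 787 in untreated cells (0.74, SE 0.15, limma adjusted p = 0.00502). For these genes the 5 h libraries lay above all libraries of the other 2 groups.

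The promoter windows of stress response genes were searched for the 8-letter core of the ATF4-binding element, TGATGNAA, and for the cAMP response element, TGACGTCA, on both strands of the 250 bases before each RefSeq start (GRCh38.p14). RefSeq windows were matched for 12 of the 13 tested genes. The core stood in 2 of the 7 genes that rose, CHAC1 and ASNS (1 of its 2 starts), and in 2 of the 4 that did not pass. It stood in 2.65% of the 3173 tested genes with a window, and in 3.14% of all 35116 windows. The cAMP element stood in PPP1R15A alone of the 12 genes searched, in 3.06% of the tested genes and in 1.65% of all windows. The windows that hold an element are shown because they belong to genes that rose, and capitals mark the match. RefSeq places the starts of all 3 genes shown inside the spans that the files give. The 2 motifs do not overlap, and a match is a description and not a site of binding.
CHAC1 (chr15:40953221-40953470, plus strand, core on the reverse strand): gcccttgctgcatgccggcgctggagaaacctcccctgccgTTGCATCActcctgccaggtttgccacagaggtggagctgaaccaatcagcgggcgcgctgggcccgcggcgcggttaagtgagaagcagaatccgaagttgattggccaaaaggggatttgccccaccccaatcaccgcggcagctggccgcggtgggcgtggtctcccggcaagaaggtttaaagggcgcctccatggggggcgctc
ASNS (chr7:97872409-97872658, minus strand): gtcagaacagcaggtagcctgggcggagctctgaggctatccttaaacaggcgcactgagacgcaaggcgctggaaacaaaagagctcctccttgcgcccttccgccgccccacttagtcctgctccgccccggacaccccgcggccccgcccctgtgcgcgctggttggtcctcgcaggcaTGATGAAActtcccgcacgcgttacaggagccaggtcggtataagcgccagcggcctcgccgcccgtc
PPP1R15A (chr19:48872171-48872420, plus strand, cAMP element): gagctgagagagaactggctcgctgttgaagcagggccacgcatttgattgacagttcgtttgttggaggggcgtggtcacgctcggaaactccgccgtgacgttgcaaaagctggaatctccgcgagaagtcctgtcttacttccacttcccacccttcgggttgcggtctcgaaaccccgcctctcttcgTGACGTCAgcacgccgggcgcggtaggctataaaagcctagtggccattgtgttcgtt

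The core starts 68 bases before the start of ASNS, and the match in CHAC1 starts 209 bases before its start. No match lay in the windows of TRIB3, PHGDH, VLDLR or STC2, which says only that these letters are not there.

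TRIB3, a pseudokinase that feeds back on ATF4 (chromosome 20, 380616 to 397559), had 608 and 631 at 5 h, against 335 and 434 at 1 h and 468 and 454 in untreated cells (0.70, SE 0.15, limma adjusted p = 0.00598). VLDLR, a lipoprotein receptor gene (chromosome 9, 2621833 to 2660053), had 208 and 201 at 5 h, against 143 and 118 at 1 h and 147 and 145 in untreated cells (0.65, SE 0.15, limma adjusted p = 0.00964). PPP1R15A, the GADD34 subunit that dephosphorylates eIF2α (chromosome 19, 48872391 to 48876057), had 1079 and 918 at 5 h and 545 and 772 at 1 h, but 921 and 936 in untreated cells (0.62, SE 0.15, limma adjusted p = 0.0136). Its untreated libraries were thus nearer to 5 h. STC2, a secreted glycoprotein gene, also rose (0.51, SE 0.15, limma adjusted p = 0.0266). NUPR1 and SESN2 fell, at -2.09 (SE 0.67, limma adjusted p = 0.041) and -0.68 (SE 0.21, limma adjusted p = 0.0329); NUPR1 averaged 14.6 tags, and SESN2 is also a p53 target. STC2, NUPR1 and SESN2 passed beyond the 6 that the naming rule takes.

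The number of stress response genes that rose was 6 without 1 h library 1, 8 without 1 h library 2, 2 without 5 h library 1 and 5 without 5 h library 2, and the number that fell was 0, 1, 0 and 0. Without 5 h library 1, PHGDH, ASNS, VLDLR and PPP1R15A missed the threshold (limma adjusted p = 0.0571, 0.0563, 0.0627 and 0.113). Without 5 h library 2, TRIB3 and VLDLR missed it (0.0519 and 0.0532), and without 1 h library 1 so did PPP1R15A (0.101, at a change of 0.37). STC2 missed it without 1 h library 1 or 5 h library 1 (0.168 and 0.241, the change being 0.31 without 5 h library 1), NUPR1 without 1 h library 1 or either 5 h library (0.288, 0.0539 and 0.259, the change being -1.14 without 1 h library 1), and SESN2 without any one of them (0.0562 to 0.158).

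**Figure D2:**
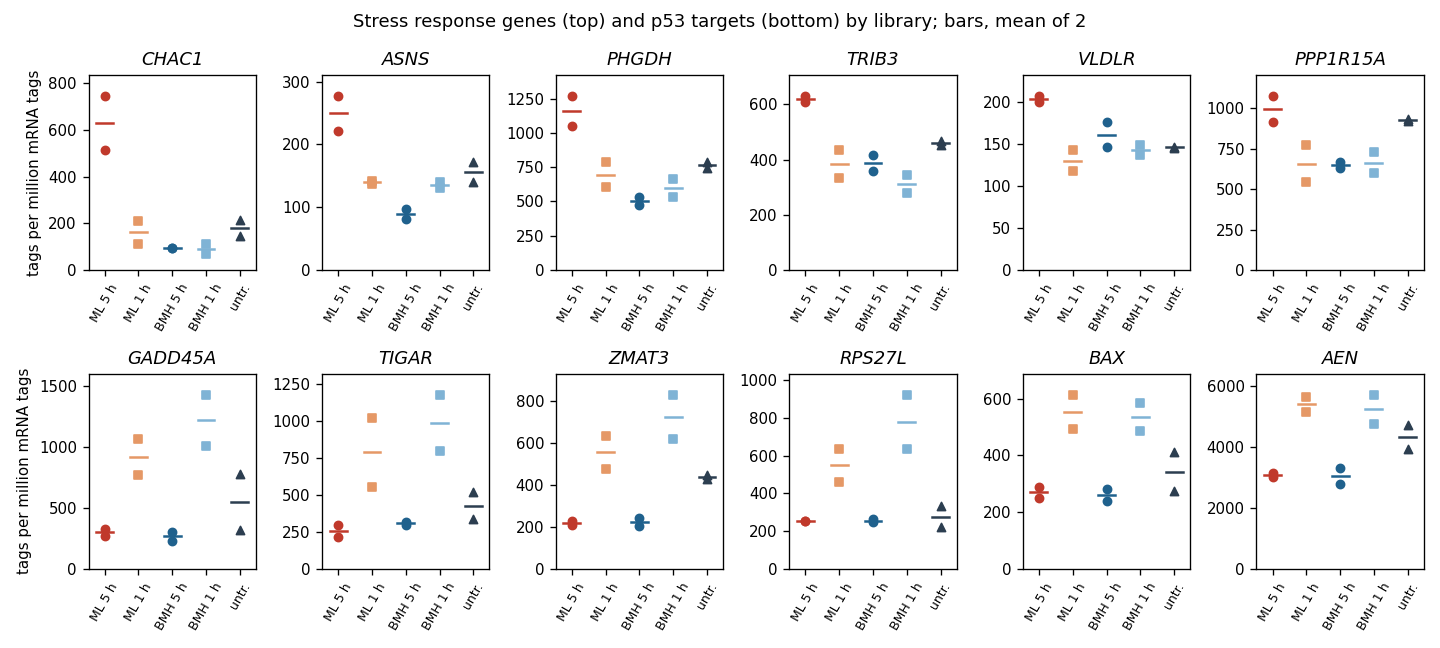
Levels by library in tags per 1000000 mRNA tags (linear axes from 0) for 6 stress response genes (top) and 6 p53 target genes (bottom), with a point per library and a bar at the mean of 2; ML and BMH stand for ML-60218 and BMH-21, and untr. for untreated. The stress response genes are higher at 5 h than at 1 h of ML-60218 (CHAC1 at 746 and 513 against 111 and 211), and the p53 targets are lower at 5 h than at 1 h of either inhibitor.

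For the stress response list, the median change between 1 h and 5 h was 0.51 under ML-60218 and -0.24 under BMH-21. ASNS had 81.3 and 97.6 at 5 h of BMH-21, against 131 and 140 at 1 h (-0.60, SE 0.17, limma adjusted p = 0.0312). Its difference in change over time, ML-60218 minus BMH-21, was 1.43 (SE 0.23, limma adjusted p = 0.0816), with the smallest unadjusted p of all rows tested. No gene passed this test in limma or in edgeR, with 314 and 280 of 4876 at an unadjusted p under 0.05. DESeq2 called 6 mRNA genes, all more positive under ML-60218. They were CHAC1 (1.86, adjusted p = 0.00122), ASNS (1.41, adjusted p = 0.00135), ASS1, PSAT1, ATF3 and PHGDH, with DESeq2 adjusted p from 0.00122 to 0.0146, and they were chosen after their values were seen. The other 3 DESeq2 calls were more negative under ML-60218, the 45S units RNA45SN3 and RNA45SN5 and the tRNA gene tRNA-Tyr-GTA-3-1 (-1.50, adjusted p = 0.000708). That tRNA gene had 166 and 167 CPM at 5 h of ML-60218 against 230.4 and 239.7 CPM at 1 h (-0.49, limma adjusted p = 0.0612). ASS1, which encodes argininosuccinate synthase of arginine synthesis (chromosome 9, 130444928 to 130501274), had 654 and 738 at 5 h of ML-60218 against 356 and 334 at 1 h (1.01, SE 0.14, limma adjusted p = 0.000812), and 285 and 323 against 317 and 315 under BMH-21. PSAT1, the next enzyme of serine synthesis after PHGDH, had 1223 and 963 at 5 h of ML-60218 and 1097 and 1114 at 1 h, which overlap (-0.03, SE 0.11, limma adjusted p = 0.888). Under BMH-21 it had 621 and 626 at 5 h against 1183 and 1099 at 1 h (-0.87, SE 0.11, limma adjusted p = 0.000711).

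Target genes of p53 were lower at 5 h than at 1 h of ML-60218. Of 9 tested, 8 fell and 1 rose in limma and in edgeR, where 8.45% of all mRNA genes fell and 14.2% rose in limma. The list median was -1.08. GADD45A, a growth-arrest gene (chromosome 1, 67685060 to 67688338), had 269 and 329 CPM at 5 h, against 1068 and 772 CPM at 1 h (-1.61, SE 0.32, limma adjusted p = 0.00479). Its untreated libraries stood at 318 and 780, one at the 5 h level and one at the 1 h level. TIGAR, a fructose-bisphosphatase gene (chromosome 12, 4321204 to 4354593), had 299 and 218 at 5 h, against 1020 and 553 at 1 h and 338 and 517 in untreated cells (-1.56, SE 0.27, limma adjusted p = 0.00256). ZMAT3, which encodes an RNA-binding zinc-finger protein (chromosome 3, 179017222 to 179072279), had 211 and 226 at 5 h, against 635 and 478 at 1 h and 429 and 446 in untreated cells (-1.33, SE 0.16, limma adjusted p = 0.000448). Each 5 h library of these 3 genes was under both 1 h libraries.

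RPS27L, a ribosomal protein paralogue (chromosome 15, 63148249 to 63157802), had 256 and 256 at 5 h against 634 and 461 at 1 h (-1.08, SE 0.21, limma adjusted p = 0.00405). Its untreated libraries, at 222.5 and 330, lay on either side of the 5 h ones. BAX, a gene of mitochondrial apoptosis (chromosome 19, 48954876 to 48961798), had 251 and 288 at 5 h, against 615 and 494 at 1 h and 274 and 411 in untreated cells (-1.04, SE 0.18, limma adjusted p = 0.00273). The nuclease gene AEN (chromosome 15, 88621295 to 88632282) had 3140 and 3014 at 5 h, against 5633 and 5158 at 1 h and 3925 and 4711 in untreated cells (-0.81, SE 0.12, limma adjusted p = 0.00113). GADD45A, TIGAR, ZMAT3, RPS27L, BAX and AEN passed without any one of the 4 libraries. FDXR, the ferredoxin reductase gene, fell to 108 and 143 at 5 h, against 439 and 254 at 1 h (-1.42, SE 0.36, limma adjusted p = 0.0146). Its untreated libraries stood at 118, within the 5 h range, and at 265.5, within the 1 h range. FDXR missed the threshold without 1 h library 1 or either 5 h library. CCNG2, a cyclin G gene, was the member that rose, outside the 6 that the naming rule takes (1.01, SE 0.23, limma adjusted p = 0.0101), and missed it without the same libraries (0.0703, 0.0749 and 0.0508). On the spike-in scale the list held 8 falls and no rise, with a median of -1.24. Under BMH-21 its median between 1 h and 5 h was -1.51, with GADD45A at -2.17 and ZMAT3 at -1.68, and no member's difference between the inhibitors passed.

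The 12 largest rises that the naming rule takes ran from 1.71 to 2.12. The rule's mean of at least 50 tags covers all 4 libraries, so a gene can pass it through the 5 h libraries, which held more tags. For some of the 12 the 1 h side rests on few tags. DACT1 had 99.5 and 97 tags at 5 h against 8 and 25 at 1 h, and NFATC4 had 96 and 85 against 17.5 and 13. Passes with a library left out, given below, are of genes chosen in this way. DACT1, an inhibitor of Wnt signalling (chromosome 14, 58638178 to 58647170), had 105 and 126 CPM at 5 h, against 14.6 and 46.5 CPM at 1 h and 42.8 and 34.1 CPM in untreated cells (2.12, SE 0.39, limma adjusted p = 0.00312). TXNIP, the gene of the thioredoxin-interacting protein (chromosome 1, 145992434 to 145996600), had 926 and 965 at 5 h against 187 and 295 at 1 h (2.01, SE 0.17, limma adjusted p = 4.24e-05), and its untreated libraries at 931 and 989 stood with the 5 h ones. LGALS1, the galectin-1 gene (chromosome 22, 37675607 to 37679806), had 214 and 187 at 5 h, against 56.7 and 48.3 at 1 h and 83.2 and 81.9 in untreated cells (1.92, SE 0.17, limma adjusted p = 8.33e-05). PCDH1, a protocadherin gene (chromosome 5, 141853110 to 141878410), had 465 and 472 at 5 h, against 128 and 152 at 1 h and 217 and 246 in untreated cells (1.74, SE 0.17, limma adjusted p = 0.000126). CHAC1 was second in this list. The remaining 7 were NFATC4, a transcription factor of calcineurin signalling, the membrane-type metalloproteinase gene MMP15, STAC2, MDGA1, the transcription factor gene CREB3L1, and the homeodomain and bHLH genes NKX2-3 and OLIG2, with changes from 1.71 to 1.91. OLIG2 missed the threshold without 5 h library 2 (limma adjusted p = 0.0649), while the other 11 passed without any one library. Without 1 h library 1, whose values were low for both, DACT1 was at 1.30 and OLIG2 at 0.88.

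Among the largest falls, GADD45A, TIGAR, FDXR and ZMAT3 are on the p53 list. ISG20, an exonuclease gene (chromosome 15, 88636152 to 88655621), lies downstream of AEN on the same strand. It had 63.3 and 53.4 CPM at 5 h, against 225 and 223 CPM at 1 h and 201 and 184 CPM in untreated cells (-1.94, SE 0.15, limma adjusted p = 4.24e-05). CCP110, a centriole gene (chromosome 16, 19523810 to 19553408), had 132 and 152 at 5 h, against 634 and 387 at 1 h and 258 and 307 in untreated cells (-1.80, SE 0.24, limma adjusted p = 0.000812). XACT, a long noncoding RNA (chromosome X, 113616299 to 113938218), had 135 and 123 at 5 h, against 517 and 346 at 1 h and 539 and 428 in untreated cells (-1.71, SE 0.18, limma adjusted p = 0.000153). SLC30A1, a zinc exporter and the 1 tested member of the metallothionein and zinc list (chromosome 1, 211571567 to 211578742), had 267 and 309 at 5 h, against 780 and 817 at 1 h and 466 and 624 in untreated cells (-1.47, SE 0.15, limma adjusted p = 0.000138). PLK2, a polo-like kinase gene, TRIM22, RAD51C, which acts in homologous recombination, and SCHIP1 changed by -1.43, -1.44, -1.30 and -1.37. SCHIP1 missed the threshold without 1 h library 1 or either 5 h library (0.0768, 0.0609 and 0.0677), with a change of -0.76 without 1 h library 1. FDXR missed it without the same libraries (0.0989, 0.109 and 0.0523), and the other 10 passed without any one library.

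**Figure D3:**
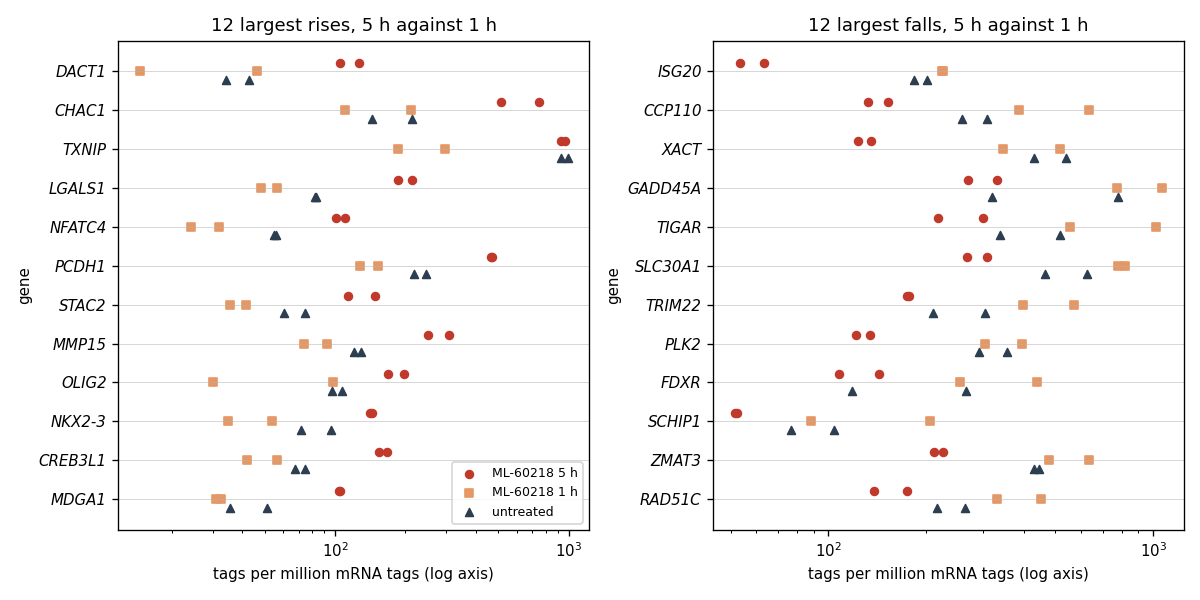
The 12 largest rises (left) and 12 largest falls (right) that the naming rule takes, in tags per 1000000 mRNA tags on a log axis, with 2 points per group for ML-60218 5 h, ML-60218 1 h and untreated cells. All 5 h points lie on one side of both 1 h points, as the rule requires, and the untreated points of TXNIP (931 and 989) lie with those of 5 h.

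Genes of ribosome production had lower medians at 5 h. Of 12 ribosome biogenesis genes, 9 fell in limma and 6 in edgeR, none rose, and the median was -0.46. Among all mRNA genes 8.45% fell in limma. DDX21, a nucleolar helicase gene (chromosome 10, 68956127 to 68985073), had 765 and 733 CPM at 5 h, against 1235 and 1352 CPM at 1 h and 1361 and 1279 CPM in untreated cells (-0.79, SE 0.10, limma adjusted p = 0.000448). DDX10, a further helicase of small-subunit processing (chromosome 11, 108665024 to 108940930), had 605 and 602 at 5 h, against 924 and 879 at 1 h and 962 and 914 in untreated cells (-0.58, SE 0.09, limma adjusted p = 0.00177). WDR75, UTP20, RRP1B and NAT10 changed by -0.74, -0.55, -0.50 and -0.45 (limma adjusted p from 0.00502 to 0.0101). The number that fell was 7 and 8 without 1 h library 1 and 2, and 4 and 5 without 5 h library 1 and 2. WDR75 and UTP20 missed the threshold without 5 h library 2 (0.0583 and 0.0597), and RRP1B and NAT10 without 5 h library 1 (0.0635 and 0.0773). All 14 ribosomal protein genes tested had negative changes, from -0.36 to -0.14, but only RPS4X, RPL6 and RPL22 passed in limma and none in edgeR. Over all mRNA genes tested 2568 changes were positive and 2298 negative. Without 1 h library 2 or either 5 h library, none of the 14 passed, and RPL6 was at -0.22 without 1 h library 2. On the spike-in scale 5 ribosome biogenesis and 0 ribosomal protein genes fell. TTF1, the Pol I termination factor gene, fell (-0.56, SE 0.13, limma adjusted p = 0.00812), 1 of 3 Pol I genes tested, and missed the threshold without 5 h library 2 (0.0612).

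Of 15 DNA replication genes, 7 fell in limma and 6 in edgeR, with a median of -0.37, where 8.45% of all mRNA genes fell in limma. CDC6, which loads the replicative helicase, had 248 and 221 CPM at 5 h, against 332 and 347 CPM at 1 h and 359 and 316 CPM in untreated cells (-0.53, SE 0.13, limma adjusted p = 0.0129). CDC45, a helicase subunit gene, had 320.2 and 279 at 5 h, against 417 and 437 at 1 h (-0.51, SE 0.12, limma adjusted p = 0.0112). POLD3, MCM3, GMNN and MCM6 changed by -0.54, -0.37, -0.50 and -0.38. Without 5 h library 2 none of the 15 passed (limma adjusted p = 0.109 for CDC6 and 0.107 for CDC45), and 3 did without 5 h library 1. POLD3, GMNN and MCM6 were among those lost there (0.0682, 0.115 and 0.174), GMNN and MCM6 were also lost without 1 h library 1 (0.0904 and 0.0945), and MCM3 without 1 h library 2 (0.0592). On the spike-in scale 4 replication genes fell and no mitosis gene passed. Of 27 mitosis genes, 4 rose in limma and 3 in edgeR. The limma count is near the share of all mRNA genes that rose, 14.2%. The list had 21 positive changes and a median of 0.19, where 2568 of all mRNA genes were higher and 2298 lower. CENPA, the centromeric histone gene, had 328 and 265 at 5 h, against 149 and 207 at 1 h and 275 and 255 in untreated cells (0.74, SE 0.18, limma adjusted p = 0.0124). It missed the threshold without 1 h library 1 or 5 h library 1 (0.0872 and 0.109), and the count ran from 1 to 8 with a library left out (1 without either 5 h library, 2 without 1 h library 1 and 8 without 1 h library 2). In bulk libraries, fewer cells that make a transcript and less of it per cell cannot be told apart.

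Immediate early genes, which respond first to growth factors and stress, were higher at 5 h in 8 of 16 cases in limma and 7 in edgeR, and none fell. Among all mRNA genes 14.2% rose in limma. KLF2, a zinc-finger transcription factor gene (chromosome 19, 16324816 to 16327874), had 311 and 361 CPM at 5 h, against 90.5 and 163 CPM at 1 h and 205 and 221 CPM in untreated cells (1.46, SE 0.24, limma adjusted p = 0.0019). MYC had 2398 and 2052 at 5 h, against 1305 and 1643 at 1 h and 2042 and 2239 in untreated cells (0.60, SE 0.14, limma adjusted p = 0.00973). For MYC the untreated libraries thus lay with the 5 h ones. KLF10, NR4A2, CYR61 and KLF6 changed by 0.80, 0.73, 1.08 and 0.76, while FOS, chosen after its value was seen, did not pass (-0.30, SE 0.23, limma adjusted p = 0.376). The count was 5 and 9 without 1 h library 1 and 2, and 2 and 3 without 5 h library 1 and 2. MYC missed the threshold without 1 h library 1 or 5 h library 1 (0.0675 and 0.0933), NR4A2 without 5 h library 1 (0.0935), KLF10 without 5 h library 2 (0.0621), CYR61 without either 5 h library (0.0746 and 0.0605), and KLF6 without 1 h library 1 (0.177) or either 5 h library (0.0818 and 0.145), while KLF2 passed without any one library. Without 1 h library 1, CYR61 was at 0.50 and KLF6 at 0.30, and without 1 h library 2 they were at 1.65 and 1.22. On the spike-in scale 1 of the 16 rose.

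Heat shock genes rose in 4 of 6 cases in limma and in edgeR, where 14.2% of all mRNA genes rose in limma. BAG3, a co-chaperone gene (chromosome 10, 119651369 to 119677819), had 599 and 486 CPM at 5 h, against 223 and 288 CPM at 1 h and 440.1 and 447 CPM in untreated cells (1.09, SE 0.15, limma adjusted p = 0.000986), and passed without any one library. SERPINH1, DNAJB1 and HSPH1 changed by 0.64, 0.73 and 0.50, and all 3 missed the threshold without 1 h library 1 (0.0807, 0.142 and 0.1, with SERPINH1 at 0.39 and DNAJB1 at 0.41) and without 5 h library 1 (0.09, 0.15 and 0.124). HSPH1 also did without 5 h library 2 (0.0575). Of the 6 heat shock genes, 1 passed without 1 h library 1, 6 without 1 h library 2, 1 without 5 h library 1 and 3 without 5 h library 2, and 1 passed on the spike-in scale. Of 4 cholesterol synthesis genes, 2 fell in limma and in edgeR, where 8.45% of all mRNA genes fell in limma. MSMO1, a sterol oxidase gene (chromosome 4, 165327622 to 165343160), fell to 225 and 242 at 5 h, against 553 and 448 at 1 h and 515 and 319.9 in untreated cells (-1.09, SE 0.19, limma adjusted p = 0.00224). HSD17B7, a sterol reductase gene (chromosome 1, 162790745 to 162812529), fell to 71.7 and 75.5 at 5 h, against 207 and 130 at 1 h (-1.15, SE 0.22, limma adjusted p = 0.00393). Both passed without any one library. SLC2A3, a glucose transporter gene of the glycolysis and hypoxia list (1 of 5 that rose; chromosome 12, 7919229 to 7936275), had 78.6 and 76.2 at 5 h against 14.6 and 33.4 at 1 h (1.78, SE 0.31, limma adjusted p = 0.00256), and passed without any one library.

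The other lists changed little or in both directions. Among all mRNA genes 14.2% rose and 8.45% fell in limma, and counts here such as 1 of 5 higher or 1 of 8 lower are near those shares. Of 10 NRF2 targets, OSGIN1 and HMOX1 rose and TKT and ABCC2 fell in limma, with a median of -0.05, and each of the 4 missed the threshold without at least 1 library (limma adjusted p from 0.051 to 0.223 in those cases). Without 1 h library 1, HMOX1 was at 0.38 and ABCC2 at -0.58. Of 5 unfolded protein response genes CRELD2 rose, and it missed the threshold without 1 h library 1 or either 5 h library (0.0884, 0.089 and 0.0558). Of 7 Pol II elongation genes, ICE1 and CCNT1 fell, ICE1 missing it without either 5 h library (0.0605 and 0.0602) and CCNT1 without 1 h library 2 or 5 h library 2 (0.212 and 0.306, at -0.25 and -0.26). Of 8 proteasome genes PSMB7 fell, and it missed the threshold without any one of the 4 libraries (0.0575 to 0.168). None of the 2 aryl hydrocarbon receptor targets or the 2 replication histone genes tested passed.

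**Figure D4:**
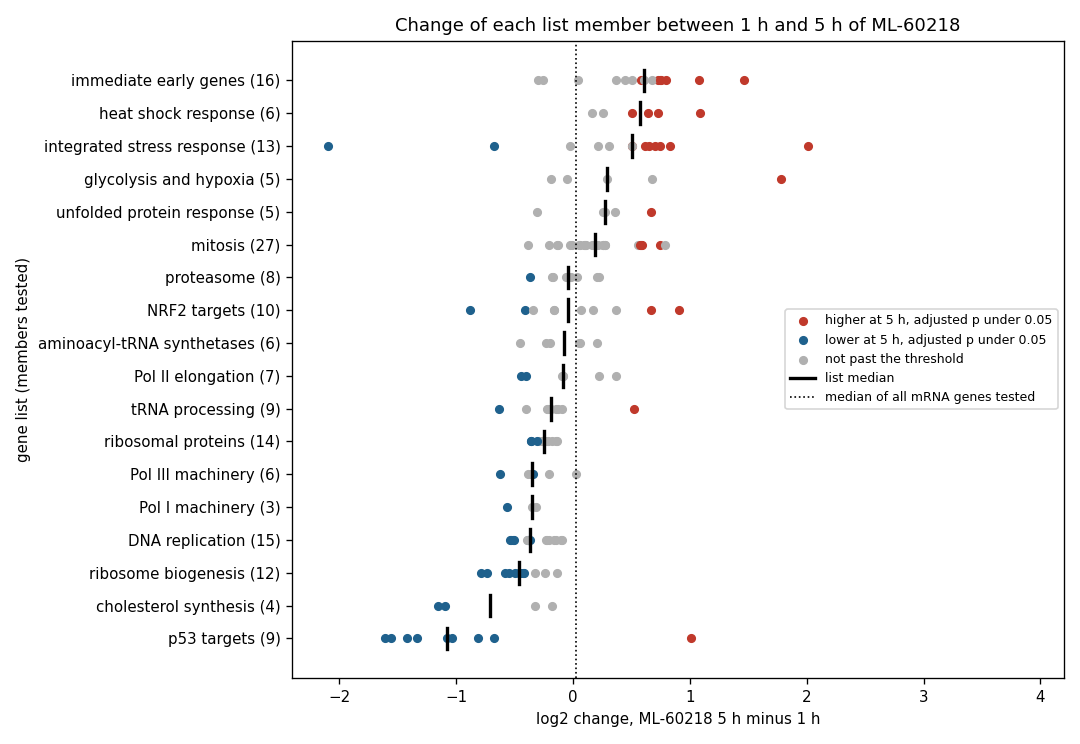
Log2 change of each tested list member, ML-60218 5 h minus 1 h (x axis), by gene list (rows, number tested in parentheses; lists of at least 3, without the blood lineage list); red and blue points passed (limma adjusted p under 0.05), grey did not, the black bar is the list median and the dotted line the median of all mRNA genes tested (0.03). The p53 list lies lowest, with a median of -1.08, and the immediate early, heat shock and stress response lists lie highest.

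The changes over time under ML-60218 were set against those under BMH-21, which used other libraries. Both came from the same fit with a spread shared per gene, so the calls under the 2 inhibitors are not independent. ML-60218 gave 1106 calls in limma and 783 in edgeR, and BMH-21 gave 649 in limma (13.3%; 7.79% higher, 5.52% lower) and 1160 in edgeR. The BMH-21 libraries held more mRNA tags, 1376449.5 to 6059928.5, so the counts of calls are not compared. In limma, 279 genes rose under both, 40.2% of the ML-60218 rises and 73.4% of the BMH-21 rises, 161 fell under both (39.1% and 59.9%), and 1 went opposite ways. In edgeR, 345 rose under both (65.8% and 53.2%) and 177 fell under both (68.3% and 34.6%). Of the 1106 genes called under ML-60218, 1053 (95.2%) had the same sign under BMH-21. The share over all genes tested was not counted, so this figure has no baseline. The ML-60218 rises had a median change of 0.54 under BMH-21, and the falls a median of -0.43. TXNIP rose by 1.37 under BMH-21 (limma adjusted p = 0.000486) and SLC30A1 changed by -1.58 (0.000158), while CHAC1 was at 0.09 (0.871).

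**Figure D5:**
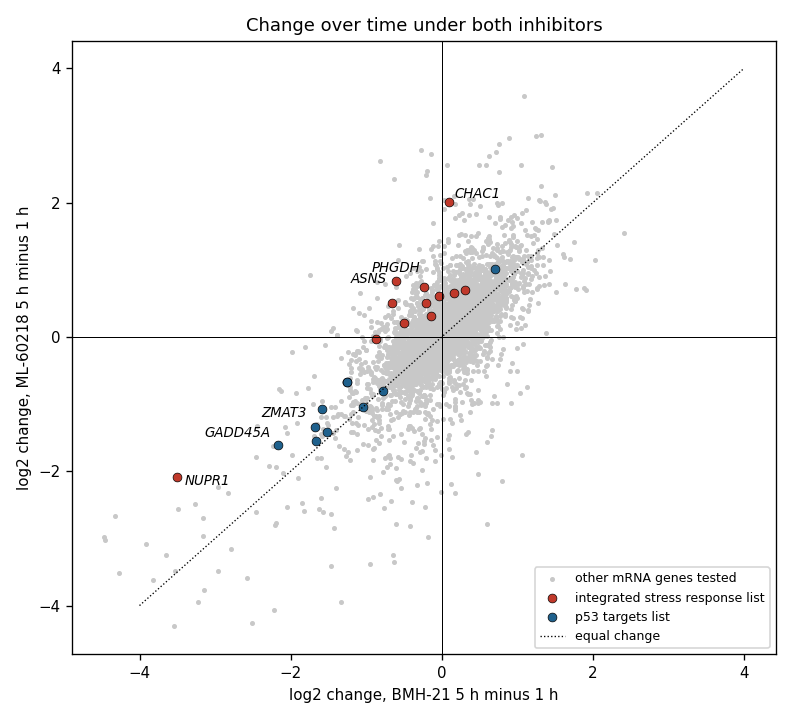
Log2 change between 1 h and 5 h under ML-60218 (y axis) against that under BMH-21 (x axis), a point per mRNA gene tested, with stress response genes in red, p53 targets in blue and a dotted line of equal change; no library is shared between the axes. The p53 targets lie near the line in the lower left except CCNG2, and CHAC1 lies at 2.02 under ML-60218 and 0.09 under BMH-21.

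The direction of change went with the length of the gene body. Of 1066 genes under 10 kb, 20.5% rose and 5.25% fell, with a median of 0.24. Of 184 genes over 200 kb, 4.89% rose and 18.5% fell, with a median of -0.20. The classes between, 10 to 30 kb, 30 to 100 kb and 100 to 200 kb, had medians of 0.08, -0.02 and -0.12; on the spike-in scale the medians from the shortest class to the longest were 0.08, -0.08, -0.18, -0.28 and -0.36, so the 10 to 30 kb class changed sign. In edgeR 16.7% of the shortest class rose and 2.44% fell, against 2.72% and 12% of the longest. Under BMH-21 the medians were 0.13, 0.07, -0.05, -0.09 and -0.13, in the same order of length. This is a description across genes, which are not independent replicates.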

How the data were processed

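TT-chem-seq was run on 16 HAP1 libraries. According to the submitters' processing notes, reads were handled with STAR 2.7.7a, HOMER, Trim Galore 0.6.5 and FastQC 0.11.9, and the builds were GRCh38 and, for yeast, R64. Per the file headers, HOMER assigned tags to regions on hg38 with no strand option, so tags of a gene and of one that overlaps it cannot be separated. The authors deposited a signal column per library, headed as raw counts but holding tags per 10M, for 9944 mRNA and noncoding gene bodies, 5 45S units, and 631 tRNA genes with a 5S sum. The authors also deposited ratio columns, spike-in scaled over the untreated library of the same number, from which the spike-in factors were taken. With the header totals, 91787 of 91787 mRNA values and 3243 of 3244 tRNA values under 200 tags came out as multiples of 0.5 tag within 0.005.

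Rows passed edgeR's filterByExpr (minimum 10 tags). The test was limma's trend method on log2(CPM + 0.5), with CPM per 1000000 mRNA tags after TMM, fitted to the 10 labelled libraries without DRB and adjusted by Benjamini-Hochberg over all rows at 0.05 (R 4.3.3, limma 3.58.1). edgeR 4.0.16 (quasi-likelihood) and DESeq2 1.42.0 ran on recovered tags, rounded for DESeq2. The limma fit took all 10 libraries as equally precise, while their mRNA tags ran from 520536.5 to 6059928.5. The methods were tested on simulated data, where limma made more false calls than edgeR at these unequal depths. Named genes are the 12 largest rises and falls among calls with at least 50 tags on average, libraries apart and a characterised name, and up to 6 passing members of each of 23 lists. Comparison, lists and rule were chosen with earlier results of these data known. Same-numbered ML-60218 libraries deviated together with r = 0.074 over genes (0.036 to 0.297 over 10 pairs of groups), so numbers were not taken as pairs. The limma test does not separate counting error from library spread, while edgeR and DESeq2 fit counts with a dispersion beyond counting error. PCR copies are not independent molecules in any of these tests. Alternatives were other scales, filters, pseudocounts, fits and tools, and each library left out.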

Additional observations from a re-analysis of the deposited data

How the results depend on the processing

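The 1106 calls between 5 h and 1 h became 454 on the spike-in scale, 634 with DESeq2, 0 with all 14 labelled libraries in the fit, and 434 to 1365 with a library left out (710 without 1 h library 1, 1365 without 1 h library 2, 527 without 5 h library 1 and 434 without 5 h library 2). All calls tested in each of these settings kept their sign. Of the 3 tRNA calls, the count was 6 with no filter, 1 with a filter at 50 tags, 0 with 14 libraries, 5 with only the 4 libraries compared, 1 with DESeq2, and 0 to 4 with a library left out. The difference between the inhibitors went from 0 calls to 6 on the scale of library totals, 6 with DESeq2, and 0 to 12 with a library left out. The 5S change ran from -1.344 (adjusted p = 0.0283) to -0.126 with a library left out. The tRNA sum was at -0.085 on the spike-in scale and -0.06 to 0.217 with a library left out. The 45S sum was at -0.144 on the spike-in scale, -0.005 with library totals and with DESeq2 size factors, -0.018 with DESeq2, and -0.061 to 0.1 with a library left out. Among single genes, signs turned for BCYRN1 (-0.078 on the spike-in scale, -0.018 with DESeq2, -0.362 to 0.533 with a library left out), RNA45SN1 (0.001 with only the 4 libraries, -0.142 to 0.104), RNA45SN4 (-0.1 on the spike-in scale, -0.014 to 0.142) and HIST1H3E (-0.05 to 0.945), none of them called, and the causes were not tested. A set of 87 called genes joined those that the naming rule takes with all called members of the lists. Of these 87, 47 still passed on the spike-in scale, 73 with edgeR and 69 with DESeq2, and fewer than 87 with any 1 library left out. With the replicate number as a block, which the labels do not tie to a shared day or culture, 1439 mRNA genes, 5 tRNA genes and 4 differences between inhibitors passed. The 1 h libraries held fewer tags than the 5 h ones, which limits low genes most.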
